A study of Mus musculus with 8 samples.

Results

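The miR-148 and miR-152 family was followed in exosomes (small membrane vesicles released by cells) of mouse amniotic fluid. Its members were taken by name from the array: mmu-miR-148a-3p, mmu-miR-148b-3p, mmu-miR-152-3p and mmu-miR-148a-5p, written below without the mouse prefix. All 4 were present, among 1881 miRNAs on the array. The series holds 8 one-colour Agilent miRNA arrays, 1 per sample. In the LPS group (4 arrays), mice received lipopolysaccharide, the bacterial outer membrane component that sets off inflammation, intraperitoneally at 100 μg per kg of body weight on day 14 of pregnancy, and gave birth preterm about 48 h later. The control group (4 arrays) is fluid from cesarean sections, and the labels do not say whether those mice were injected. Day 17 of pregnancy is the stage given for all samples, which is later than day 14 plus about 48 h, so equal gestational age of the groups is not settled by the labels. No strain or genotype is named by the labels. Nor do they say that each array is a separate animal, and if it is not, the p-values capture technical spread alone.

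MicroRNAs are short RNAs that bind messenger RNAs through their seed, bases 2 to 8, and lower the protein made from them. The 3p arms of the mir-148a, mir-148b and mir-152 hairpins carry the same seed and are known to repress DNA methyltransferase 1, the enzyme that copies methylation marks at cell division. In placenta they are also known as repressors of HLA-G, a human molecule of tolerance at the boundary between mother and fetus, and in dendritic cells they limit the response to Toll-like receptor signals such as LPS. miR-148a-3p is also abundant in liver and in milk vesicles.

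The mature sequences are shown because the arms differ by so few bases that the probes must separate near-identical RNAs. They are written 5′ to 3′ from RefSeq (GRCm38.p6), where all 6 names of the members and their partner arms were matched, with the seed in capitals.
miR-148a-3p: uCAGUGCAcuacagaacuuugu
miR-148b-3p: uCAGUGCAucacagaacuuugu
miR-152-3p: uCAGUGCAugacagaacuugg
miR-148a-5p: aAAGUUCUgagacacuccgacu
miR-148b-5p: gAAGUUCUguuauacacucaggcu
miR-152-5p: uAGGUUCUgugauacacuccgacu

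The 3p arms of all 3 hairpins have the seed CAGUGCA, and of 1679 mature mouse miRNAs in the RefSeq table these 3 are the ones with it at bases 2 to 8. Counted from 1 at the 5′ end, miR-148a-3p and miR-148b-3p differed at 2 of 22 positions (C9U and U10C). miR-148a-3p and miR-152-3p differed at 3 of 21 positions (C9U, U10G and U20G), and miR-148b-3p and miR-152-3p at 2 of 21 (C10G and U20G). All of these positions lie outside the seed. On the other side of the hairpin, miR-148a-5p and miR-148b-5p share the seed AAGUUCU, and miR-152-5p has AGGUUCU.

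Each 3p arm was read by 2 probes, DNA strands complementary to the 3′ part of the miRNA. They are shown 5′ to 3′, with the bases opposite positions 9, 10 and 20 of the miRNA in capitals, the places where the members differ.
miR-148a-3p, 20 bases: acAaagttctgtAGtgcact
miR-148a-3p, 19 bases: acAaagttctgtAGtgcac
miR-148b-3p, 19 bases: acAaagttctgtGAtgcac
miR-148b-3p, 18 bases: acAaagttctgtGAtgca
miR-152-3p, 17 bases: cCaagttctgtCAtgca
miR-152-3p, 16 bases: cCaagttctgtCAtgc

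Every one of these probes covers all 3 differing positions and matches its own miRNA without mismatch. The 19-base probes of miR-148a-3p and miR-148b-3p lie opposite the same bases, 4 to 22, and so differ from each other in the same 2 positions as the miRNAs. How far a probe of one member also bound another was not tested. On the build used by the files, mm9, the brighter miR-148a-3p probe is placed on chromosome 6 at 51219874 to 51219892, that of miR-148b-3p on chromosome 15 at 103115620 to 103115637, and that of miR-152-3p on chromosome 11 at 96711758 to 96711773. These spans are 1 base shorter than the probes and place them only to within a few bases. By the RefSeq gene table, Mir148b lies within Copz1 and Mir152 within Copz2, paralogous genes for a coat protein of transport vesicles, and Mir148a within the predicted gene Gm38821.

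As background for the whole series, between 405 and 554 miRNAs per array had a probe well above background. The signal used for scaling, the 75th percentile of the probes detected on all arrays, was 8.20 ± 0.51 on cesarean and 8.06 ± 0.42 on LPS arrays (log2, mean ± SD, n = 4 each; two-sided exact permutation test, p = 0.743). All 8 arrays lay on 1 slide. Each group filled a row of it, and row and group cannot be told apart. Of 470 miRNAs tested with limma, 23 passed an adjusted p of 0.05 (4.89%), 12 higher (2.55%) and 11 lower (2.34%) with LPS.

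In both groups the 3p arms gave signal well above background, miR-148b-3p by 1 of its 2 probes, and the 5p arms did not. Whether the 5p probes bind their miRNAs was not tested. The miR-148a-3p and miR-152-3p probes were well above background on all 8 arrays. miR-148b-3p was well above background on 7 of the 8. miR-148a-5p was not well above background in any of 32 probe readings (4 probes on 8 arrays), with background-subtracted signals before scaling from -4.56 to 0.13. The partner arms, which are no members, read the same way: miR-148b-5p ran from -1.13 to 1.54 and miR-152-5p from -2.13 to 0.39, with 0 of 16 readings above background each. The lowest signal well above background on each array had a median over the arrays of 13.5 on the scaled axis (3.75 in log2). This median served as the floor, and no fold is given for the 5p arms.

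**Figure D1:**
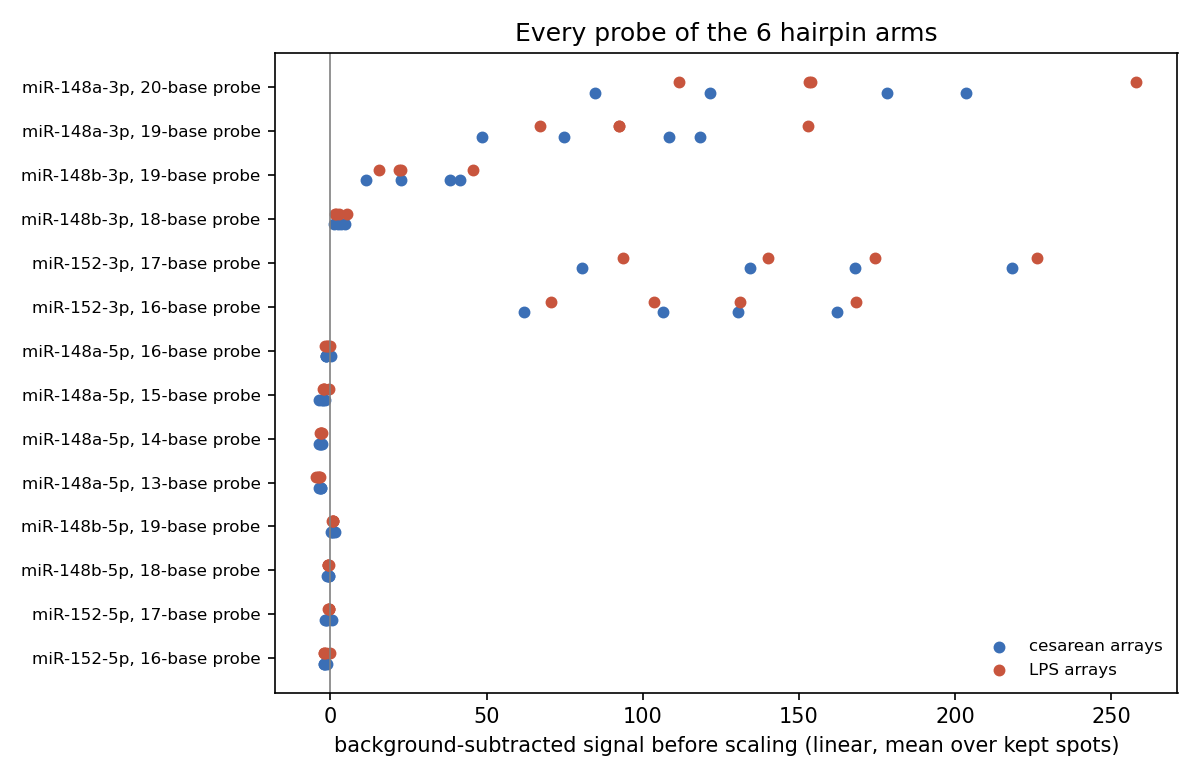
Background-subtracted signal before scaling (linear axis, mean over the kept spots) of every probe of the 6 hairpin arms, 1 point per array, cesarean in blue and LPS in red. The miR-148a-3p and miR-152-3p probes spread from 48.6 to 258, the brighter miR-148b-3p probe from 11.3 to 45.8, and all 5p probes lie around 0.

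The probes of a member gave like answers for miR-148a-3p and miR-152-3p and not for miR-148b-3p. The 20-base miR-148a-3p probe was 0.70 to 0.80 brighter (log2) than the 19-base one on every array, and the 17-base miR-152-3p probe 0.34 to 0.43 brighter than the 16-base one. For miR-148b-3p the 19-base probe read from 11.3 to 45.8 before scaling. Its 18-base probe, shorter by a single base at the end opposite the seed, read from 1.08 to 5.23 and was well above background on 0 of 8 arrays. All values of miR-148b-3p below therefore rest on 1 probe. Spots of a probe repeat on each array, 13 to 15 kept for these probes. Their coefficient of variation was 2.09% to 11.0% for the brighter miR-148a-3p probe, 4.35% to 13.4% for that of miR-152-3p and 6.67% to 20.9% for that of miR-148b-3p.

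Between LPS preterm birth and cesarean section, no measured member passed the test. The difference of miR-148a-3p (0.36) was larger than its SD within groups (0.23), while those of miR-152-3p (0.24 beside 0.34) and miR-148b-3p (0.10 beside 0.38) were smaller. Of 3 members tested, 0 passed an adjusted p of 0.05 in limma, 0 were at an unadjusted p of 0.05 (24.9% of all tested) and 0 had groups that did not overlap (17.0% of all tested). All 3 differences were above 0, from 0.10 to 0.36 in log2 with a median of 0.24, beside a median of -0.06 over the 470. With as few members this share is a description only. All values below are log2 of the scaled signal, and since probes bind unequally, abundance cannot be read across members.

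miR-148a-3p read 6.80, 7.35, 6.79 and 7.24 on cesarean replicates 1 to 4. On LPS replicates 1 to 4 it read 7.56, 7.39, 7.47 and 7.21. The LPS arrays lay close together, 3 of them above every cesarean array, while LPS replicate 4 fell below cesarean replicates 2 and 4. The group means were 7.05 ± 0.29 and 7.41 ± 0.15 (SD, n = 4 each), a difference of 0.36 ± 0.23 (SE), or 1.29-fold (limma adjusted p = 0.344). Its 95% interval runs from -0.14 to 0.87, or 0.905-fold to 1.82-fold. By p it ranked 194 among the 470. Its other probe gave 0.37.

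miR-152-3p read 6.72, 7.45, 6.72 and 7.38 on cesarean replicates 1 to 4. On LPS replicates 1 to 4 it read 7.43, 7.57, 7.28 and 6.96. The cesarean arrays fell into a lower and a higher pair, the same pairs as for miR-148a-3p, and the LPS arrays ran from inside the gap between the pairs to above the higher pair. The means were 7.07 ± 0.40 and 7.31 ± 0.26 (SD, n = 4 each), a difference of 0.24 ± 0.26 (SE), or 1.18-fold (limma adjusted p = 0.614). The 95% interval runs from -0.35 to 0.83, or 0.786-fold to 1.78-fold, and its other probe gave 0.20.

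miR-148b-3p read 4.70, 4.94, 3.89 and 4.80 on cesarean replicates 1 to 4. On LPS replicates 1 to 4 it read 4.79, 4.57, 4.98 and 4.37. Cesarean replicate 3 was the array on which it was not well above background, and there it stood just above the floor of 3.75. The other 7 arrays of both groups were intermixed. The means were 4.58 ± 0.47 and 4.68 ± 0.26 (SD, n = 4 each), a difference of 0.10 ± 0.28 (SE), or 1.07-fold (limma adjusted p = 0.874), with a 95% interval from -0.53 to 0.73. Its sign turned under some scalings and with single arrays left out: the difference was -0.06 without scaling and with scaling to the spike-in probes, and -0.13 without cesarean replicate 3.

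**Figure D2:**
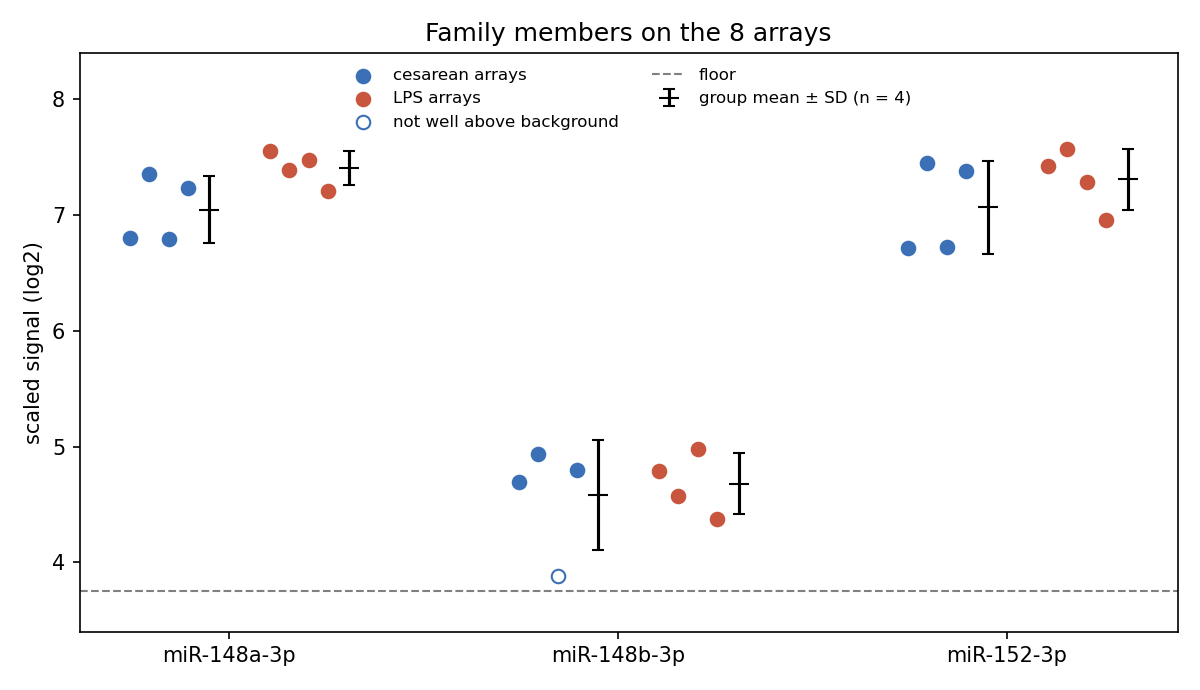
Scaled signal (log2) of the 3 measured members on each array, cesarean in blue and LPS in red, with group mean ± SD (n = 4) as bars, the floor as a dashed line and an open point where the probe was not well above background. The groups overlap for all 3, and cesarean replicate 3 of miR-148b-3p, at 3.89, is the open point just above the floor.

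The intervals bound the sizes that this fit leaves possible. They are those of the values as scaled here, without the slide column in the model, and intervals of other settings are not given. For each of the 3 members the 95% interval lay within a 2-fold change in either direction, which held for 186 of the 470 miRNAs tested (39.6%). Smaller changes lie within the intervals, for miR-148a-3p up to a 1.82-fold rise. The interval of miR-148b-3p is less firm, since on 1 array its probe was not well above background. miR-148a-3p was among the steadier miRNAs on these arrays: its SD within groups was 0.23, beside a median of 0.42 over all tested and 0.34 for miR-152-3p and 0.38 for miR-148b-3p.

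Whether members responded differently was tested on the log2 difference between 2 members within each array, in which the scaling cancels for values above the floor. The 3 pairs were compared by two-sided exact permutation tests over 70 allocations, whose smallest possible p is 0.0286. The effect in miR-148a-3p exceeded that in miR-148b-3p by 0.26 ± 0.18 (SE; exact p = 0.286, adjusted p = 0.429; 95% interval from -0.19 to 0.71). It exceeded that in miR-152-3p by 0.12 ± 0.11 (exact p = 0.286, adjusted p = 0.429; interval from -0.16 to 0.40). With single arrays left out, the former ran from 0.14 (without cesarean replicate 1) to 0.41 (without cesarean replicate 3), and the latter from 0.07 (without LPS replicate 4) to 0.21 (without LPS replicate 2). miR-148b-3p minus miR-152-3p gave -0.14 ± 0.22 (exact p = 0.514, adjusted p = 0.514; interval from -0.69 to 0.40). No pair passed the test, and the intervals do not show that the members act alike.

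Each slide column held 1 array of each group. In columns 1 to 4 the miR-148a-3p differences, LPS minus cesarean, were 0.75, 0.04, 0.68 and -0.02. Those of miR-152-3p were 0.71, 0.12, 0.56 and -0.42, and those of miR-148b-3p were 0.10, -0.36, 1.09 and -0.43. Columns 1 and 3 gave positive differences for all 3 members, and column 4 gave negative ones for all 3. With the column as a block the adjusted p-values were 0.607, 0.762 and 0.929 for miR-148a-3p, miR-152-3p and miR-148b-3p.

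Over the 8 arrays, the miRNA profile most like that of miR-148a-3p was that of miR-30b-5p. Likeness was the root mean square difference of log2 values after each profile was centred on its mean, and was 0.08 for this pair, beside a median of 0.55 over all other tested miRNAs. let-7g-5p (0.12) and miR-29c-3p (0.13) came next, and miR-152-3p followed at 0.15. For miR-152-3p the closest profiles were miR-30b-5p (0.13), miR-29c-3p (0.14), its relative miR-148a-3p (0.15) and miR-21a-5p (0.15). miR-148b-3p stood further from both relatives, at 0.26 from miR-148a-3p and 0.28 from miR-152-3p. By likeness to miR-148b-3p, miR-148a-3p ranked 33 and miR-152-3p ranked 40 among the tested miRNAs. Its closest profiles were miR-652-3p (0.12), miR-107-3p (0.14) and miR-361-5p (0.14). All of these profiles share the same 8 arrays and their scaling. None of the 7 named neighbours passed limma (4.89% of all tested did), with differences from -0.01 for miR-107-3p to 0.45 for let-7g-5p. They were picked for likeness to the members over the arrays of both groups. Differences near those of the members follow from that choice and are no separate result.

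Other miRNAs known to repress DNA methyltransferases were set beside the family: the miR-29 family, miR-101a-3p, miR-101b-3p and miR-143-3p, which act on the enzymes that set new methylation marks, and miR-126a-3p, miR-140-5p, miR-185-5p and miR-342-3p, which act on DNA methyltransferase 1. Of 10 listed, 9 were tested, and miR-101b-3p was well above background on 0 of 8 arrays. Of the 9, 0 rose (2.55% of all tested) and 0 fell (2.34%) by limma's adjusted p over all 470, and 1 was at an unadjusted p of 0.05 (24.9%). The groups did not overlap for 2 of the 9, miR-29b-3p and miR-185-5p, both higher on all LPS arrays, beside 17.0% of all tested. For miR-185-5p they almost touched, with the highest cesarean array at 5.427 and the lowest LPS array at 5.430. The median difference of the 9 was 0.27, beside -0.06 over all 470. Of the 9, 7 were above and 2 below 0, where all tested had 214 above and 256 below. This median was 0.14 without cesarean replicate 3 and 0.17 without LPS replicate 1. miR-29b-3p differed most, with cesarean arrays at 6.60 ± 0.32 and LPS arrays at 7.45 ± 0.37 (SD, n = 4 each). The difference was 0.85 ± 0.27 (SE; limma adjusted p = 0.0812) with groups that did not overlap. Without LPS replicate 1 it was 0.94 and passed (limma adjusted p = 0.0465), in a fit in which 79 of the 470 passed. Its sisters with the same seed differed by less, miR-29c-3p by 0.27 ± 0.25 and miR-29a-3p by 0.04 ± 0.27, the latter named after its value was seen. That contrast was not tested. Next by p came miR-143-3p (0.62 ± 0.31, adjusted p = 0.242), miR-185-5p (0.46 ± 0.25, adjusted p = 0.267) and miR-342-3p (-0.45 ± 0.30, adjusted p = 0.369).

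**Figure D3:**
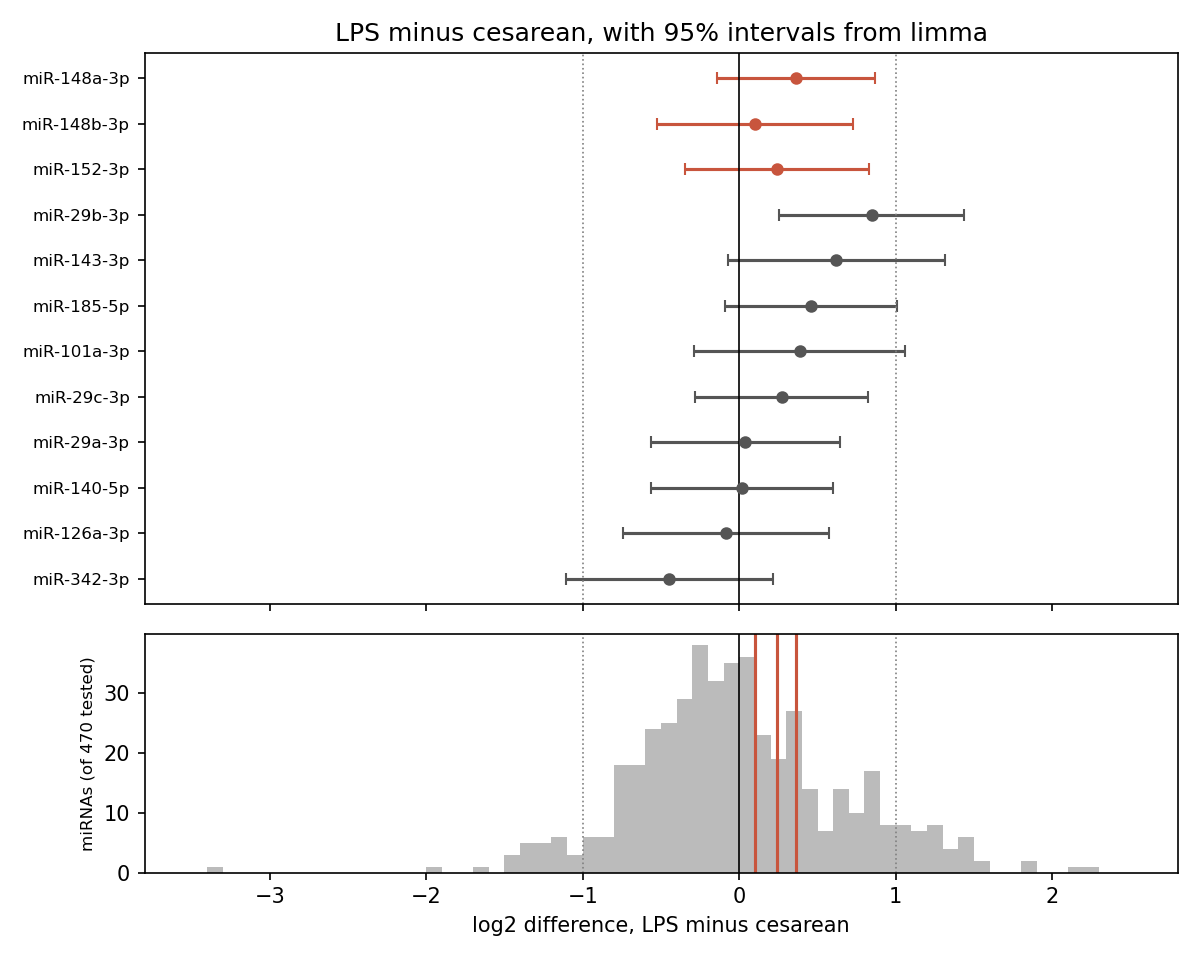
Top: log2 difference, LPS minus cesarean, with the 95% interval from limma (4 arrays a group) for the 3 measured members in red and the 9 tested miRNAs of the DNA methyltransferase list in grey. Bottom: the differences of all 470 tested miRNAs, with the members as red lines. The dotted lines mark a 2-fold change, which the members' intervals do not reach, and the interval of miR-29b-3p lies above 0 (0.25 to 1.44).

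Of 7 marker lists of other cell types, the epithelial and liver lists had summed levels that did not overlap between the groups, and the other 5 overlapped. The sums were not tested. Single markers past limma's threshold were 3 of 5 epithelial, 2 of 3 liver, 1 of 3 erythroid and 1 of 3 leukocyte ones. In the other lists 0 passed, beside 4.89% of all tested. The summed level of 5 epithelial miRNAs (the miR-200 family, all 5 detected) ran from 9.51 to 9.94 on cesarean and from 10.49 to 11.13 on LPS arrays. The liver list holds the hepatocyte miRNA miR-122-5p and the gut and kidney pair miR-192-5p and miR-194-5p. Its sum ran from 6.86 to 7.76 and from 8.29 to 10.31. In it miR-192-5p (1.20, limma adjusted p = 0.0266) and miR-194-5p (2.18, limma adjusted p = 0.0107) passed. miR-122-5p did not (2.30, limma adjusted p = 0.212), its groups overlapped, and it was well above background on 2 of 4 cesarean arrays. The erythroid list of 3 ran from 13.08 to 13.94 and from 13.78 to 14.92, with overlap. Leukocyte markers (8.84 to 9.48 and 9.03 to 9.63) and endothelial markers (7.96 to 9.08 and 8.06 to 8.59) also overlapped. A sum mostly follows its brightest marker, and 1 marker in each of the erythroid and leukocyte lists passed limma. These were miR-144-3p (1.14, limma adjusted p = 0.0172) and miR-142a-3p (1.23, limma adjusted p = 0.0325). Each was higher on all LPS arrays, where groups did not overlap, in either direction, for 17.0% of all tested. miR-144-3p was well above background on 0 of 4 cesarean arrays, which all stood at the floor. Its 1.14 is therefore a lower bound, and its p rests on a cesarean group without spread. Smooth muscle and mesenchyme markers ran from 10.19 to 11.44 on cesarean and from 9.45 to 10.35 on LPS arrays, with overlap. In that list miR-199a-3p (-0.98) and miR-214-3p (-1.34) were lower with LPS, while miR-143-3p (0.62) and miR-145a-5p (0.71) were higher. These 4 differences did not pass limma. Striated muscle markers ran from 7.55 to 8.46 and from 6.47 to 10.29, also with overlap. Every listed marker was well above background on at least 1 array. Their part in the family's levels was not tested, and more vesicles of a type cannot be told apart from more miRNA per vesicle.

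**Figure D4:**
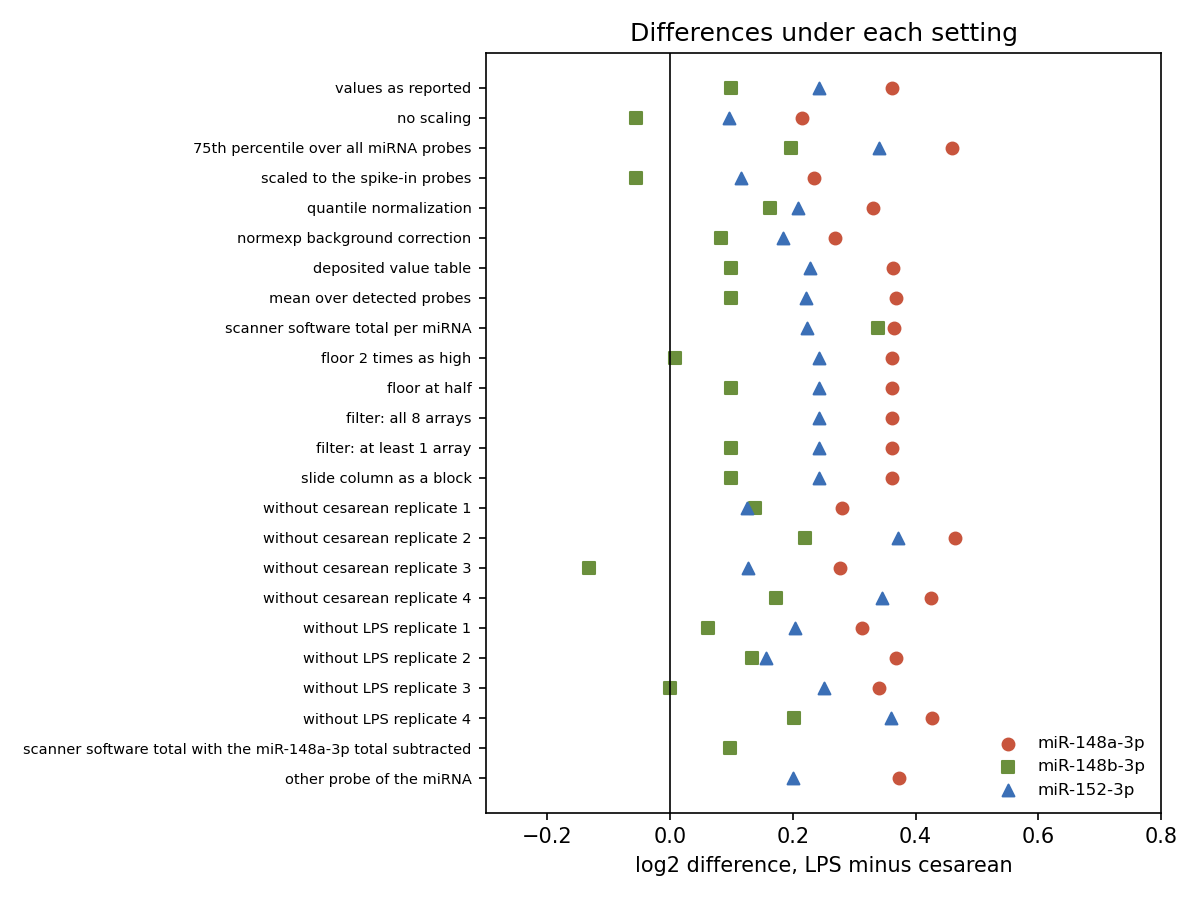
Log2 difference, LPS minus cesarean, of miR-148a-3p (red circles), miR-152-3p (blue triangles) and miR-148b-3p (green squares) under each processing setting and with each array left out. miR-148a-3p stays between 0.22 and 0.46 and miR-152-3p between 0.10 and 0.37, while miR-148b-3p lies on both sides of 0, from -0.13 to 0.34.

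The differences of miR-148a-3p and miR-152-3p kept their sign under all 22 alternatives tried for each, with adjusted p-values from 0.250 to 0.871 and from 0.415 to 0.946. miR-148b-3p was below 0 in 4 of its 21 alternatives. Scaling shifted all miRNAs: the median difference of the 470 was -0.06 as scaled and -0.20 without scaling or with the spike-in probes as the reference. Relative to that median, miR-148a-3p stood at 0.42, 0.41 and 0.43, miR-152-3p at 0.30, 0.29 and 0.31, and miR-148b-3p at 0.16, 0.14 and 0.14 in these 3 scalings. The authors' deposited value table gave 0.36, 0.23 and 0.10 for miR-148a-3p, miR-152-3p and miR-148b-3p in the same fit.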

How the data were processed

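Exosomes were isolated from amniotic fluid by size-exclusion chromatography, and 0.5 μg of RNA was labelled with Cy3, per the labels' protocols. Spot intensity values are linear and background-subtracted per spot, made by the authors with Agilent Feature Extraction, without normalization between arrays. The file headers give version 10.7.1.1 for its grid placement step, and the submitters' processing notes name 9.1. The deposited value table holds log2 values (column medians 2.14 to 2.15), normalized by a method not given in the sources used here, and was an alternative. Its direction and scale were checked against the scanner files, where each column correlated best with its own array.

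Control spots and outlier-marked spots were left out (2.99% to 3.48% of 56430 miRNA spots). A probe was well above background if at least 0.5 of its kept spots were. Probe means were scaled per array to the 75th percentile of the 618 probes detected on all arrays, raised to a floor of 13.5 and put on the log2 scale, and the brightest probe stood for each miRNA. Tested were 470 miRNAs, well above background on at least 3 of 4 arrays of a group, by lmFit and eBayes of limma 3.58.1 (R 4.3.3; two-sided, Benjamini-Hochberg over all 470). Pairs of members were compared by exact permutation. The fit was tested on simulated data. Alternatives covered scaling, background correction, floor, filter, probe choice, a slide column block and leaving out each array. Plots used matplotlib 3.10.9. The text names the members, their partner arms, the DNA methyltransferase list (those past the threshold, otherwise the 4 with the smallest p), the 3 closest profiles of each member, and marker lists. The members, lists and rules were chosen with earlier results of these data known. The number of arrays limits the precision.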

Additional observations from a re-analysis of the deposited data

How the results depend on the processing

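No result of the family passed the threshold under any alternative, so no call was lost. The count of 23 miRNAs past the threshold in all, against which the members are read, was 1 without scaling, 1 with spike-in scaling, 1 with the slide column as a block, 13 with the 75th percentile over all probes, 36 with quantile normalization, 9 with normexp correction, 6 with the scanner software's totals and 15 when detection on all 8 arrays was required. With single arrays left out it ran from 3 to 79: 5, 4, 3 and 9 without cesarean replicates 1 to 4, and 79, 4, 7 and 25 without LPS replicates 1 to 4. The count of the DNA methyltransferase list ran from 0 to 1, and its 1 was miR-29b-3p without LPS replicate 1. Its median was -0.02 with the scanner software's totals. The causes of these shifts were not tested. miR-148b-3p turned to -0.055 without scaling and -0.056 with spike-in scaling, and ran from -0.13 (without cesarean replicate 3) to 0.22 with single arrays left out. The difference of effect between miR-148b-3p and miR-152-3p was 0.12 with the scanner software's totals and ran from -0.26 to 0.013 (without cesarean replicate 1) with single arrays left out. Using each member's other probe, and subtracting the miR-148a-3p total from that of miR-148b-3p (0.10), were chosen after seeing the data. With detection on all 8 arrays miR-148b-3p was not tested. No paired analysis was possible because the numbers in the sample titles share only 1 value across the groups, and nothing in the labels pairs samples. The slide column was used as a block instead. Low signal limits miR-148b-3p, near the detection limit, and the 5p arms, under it.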

Other observations

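The scanner software's total per miRNA did not measure miR-148b-3p on its own. On every array that total equalled the miR-148a-3p total plus the total of the brighter miR-148b-3p probe, for example 77.7 against 71.1 plus 6.53 on LPS replicate 1. The miR-148a-3p part made up 87.4% to 92.2% of it over the 8 arrays. By these totals miR-148b-3p differed by 0.34 (log2, LPS minus cesarean), close to miR-148a-3p at 0.36, and with the miR-148a-3p total subtracted it differed by 0.10, as by its own probe. Between 96 and 146 of the miRNAs that the software called detected on an array (19.2% to 23.6%) had a total over 1.5 times the sum of their own probes. The deposited value table gave 0.10 for miR-148b-3p.

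The letters CAGUGCA also open another family, at bases 1 to 7 in place of 2 to 8. Of 1679 mature mouse miRNAs in the RefSeq table, 7 begin with them, among them miR-130a-3p, miR-130b-3p and miR-301a-3p, and all 7 are on the array. The 4 that were tested, a set chosen by sequence after the data were seen, differed by -1.13 ± 0.34 (miR-130b-3p, adjusted p = 0.0746), -0.75 ± 0.22 (miR-721, adjusted p = 0.0692), -0.31 ± 0.25 (miR-130a-3p, adjusted p = 0.464) and -0.08 ± 0.28 (miR-301a-3p, adjusted p = 0.903; log2, SE, limma). None passed. For miR-130b-3p and miR-721 all 4 LPS arrays lay below all 4 cesarean arrays, as in one or the other direction for 17.0% of the miRNAs tested, while the 3 members of the miR-148 and miR-152 family differed by 0.10 to 0.36.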
